A study of Mus musculus with 2 samples.

Results

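The cytochrome P450 genes of families 1 to 4 were examined in the liver of mice lacking apolipoprotein E, with and without oleanolic acid in the diet. Members were all probe sets annotated with a single gene symbol that starts with Cyp1, Cyp2, Cyp3 or Cyp4 followed by a letter. This gave 58 probe sets of 49 genes in 16 subfamilies, out of 20380 probe sets of 12393 genes with a single symbol. Each array carried RNA pooled from the livers of male mice of the C57BL/6J background that lack apolipoprotein E, labelled as 2 months of age. The control pool came from animals kept for 11 weeks on a Western diet of the semipurified kind. The oleanolic acid pool came from animals given that diet with 0.01% of the triterpenoid added, 10 mg/kg/day, over the same 11 weeks. All animals lacked apolipoprotein E and all received the Western diet, so neither pool stands for a healthy or chow-fed liver. The labels put oleanolic acid into the growth protocol of both pools, and the groups were therefore read from the titles and diet entries. How many mice each pool holds is not stated in the labels. With 1 array per diet there was no replicate and no test, and every difference below is one between these 2 arrays.

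Cytochromes P450 are heme proteins of the endoplasmic reticulum that insert an oxygen atom into their substrates, with electrons passed on by P450 oxidoreductase and cytochrome b5. In hepatocytes, families 1 to 3 mainly oxidize drugs, toxins and steroids, and family 4 hydroxylates the ends of fatty acids and eicosanoids. Several are inducible through receptors that sense foreign compounds or fatty acids: Cyp1a genes through AhR, Cyp2b and Cyp2c genes through CAR, Cyp3a genes through PXR and Cyp4a genes through PPAR-alpha. Others differ between male and female liver under the control of growth hormone, or are restricted to the pericentral or periportal zone of the lobule.

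Values are MAS5 signals, in arbitrary units on a linear scale. A gene was called measured when a probe set reached the median of all probe sets on at least 1 array (61.5 units for the control and 59.3 for oleanolic acid), which 32 of the 49 genes did. Differences are given as log2 ratios, oleanolic acid over control. The error beside a ratio is the SD between the probe sets of the gene or, for the 28 measured genes with a single such probe set, the pooled SD between probe sets of other genes of similar brightness. It covers probe error on these arrays and not variation between mice. The sums that follow take the brightest probe set of each marker gene with a probe set, dim genes included. Hepatocyte markers had summed signals of 54187 and 54988 in the control and oleanolic acid array, and 6 of 6 with a probe set were measured. Of these, 5 were above 0 and 1, Tat, was below (4440 and 2725 units, log2 ratio -0.70). Of 10 markers of the exocrine pancreas 8 were measured, all lower in the oleanolic acid array, with summed signals of 979 and 298. Their gene signals in the oleanolic acid array, from 18.7 to 51.6 units, lay under its median. Those with a single probe set counted as measured through the control array alone, so the filter fixed their direction. B and plasma cell markers (2 of 5 measured) summed to 1022 and 206.5 and adipocyte markers (2 of 5) to 690 and 299. Among these, Jchain (134 and 43.8 units) and Ucp1 (76.4 and 10.1) were also admitted by the control array alone. Macrophage markers (6 of 6) summed to 9201.5 and 8456. Sums were 281 and 340 for neutrophil markers (2 of 6) and 181 and 114 for T and NK cell markers (1 of 5). They were 1221 and 1122 for endothelial (5 of 5), 5034.5 and 5005 for stellate and fibroblast (4 of 6) and 2809 and 2716 for enterocyte markers (2 of 5). No marker of airway club cells or kidney tubules was measured. The part of these other cells in the P450 values was not tested, and in pooled tissue RNA fewer cells of a type cannot be told apart from less RNA per cell.

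The P450 genes of families 1 to 4 differed little between the arrays, as did most measured genes. Cyp2b9, which reached the array median only with oleanolic acid, had the only log2 ratio above 1. Of 32 measured genes, 1 lay above a log2 ratio of 1.5, the size named in the submitters' design, where 0.112% of 7137 measured genes lay. None lay below -1.5 (0.28% of all measured genes) or below -1 (0.631%), and Cyp2b9 was also the only one above 1 (0.392%). Past 0.5, 2 genes were higher (2.63% of all) and 0 were lower (3.24%), while 30 of 32 (93.8%) lay within 0.5 of 0, as did 94.1% of all measured genes. The median over the measured genes was 0.05, against 0.0012 over all measured genes. Of the 32 genes, 25 were above 0 and 7 below, compared with 50.2% above 0 among all genes. This split depended on the scaling of the arrays. It was 19 above and 13 below after quantile normalization, and 18 above and 14 below after intensity-dependent centring. Median centring left it at 25 above and 7 below. Ratios exceeded 1 probe set SD in 12 of 32 genes (40.5% of all measured genes did) and 2 such SDs in 3 genes, Cyp2b9, Cyp4a31 and Cyp4a14 (16.8% of all).

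**Figure D1:**
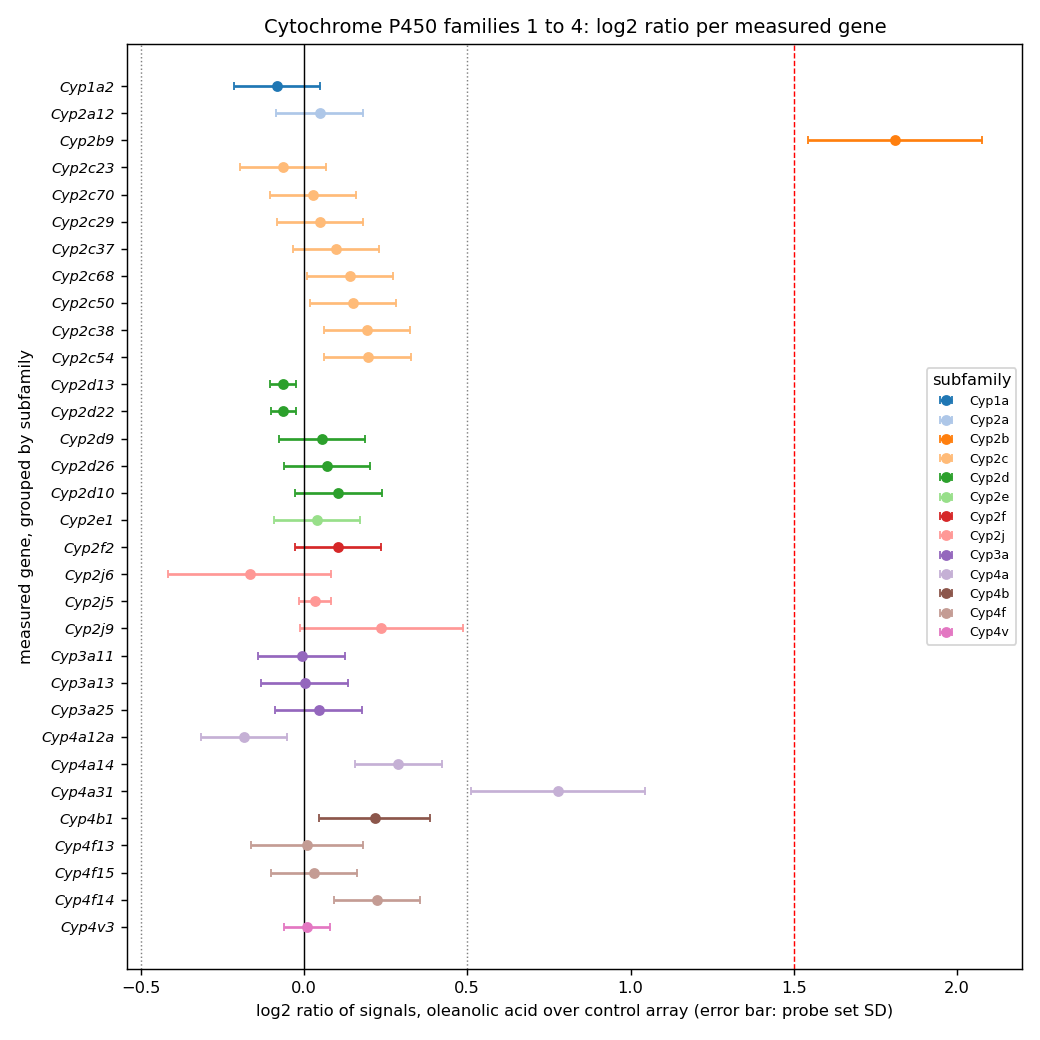
Log2 ratio of each of the 32 measured genes, oleanolic acid over control array, coloured by subfamily, with the probe set SD as error bar. Dotted lines mark 0.5 and -0.5 and the dashed line 1.5. Cyp2b9 stands at 1.81 and Cyp4a31 at 0.78, and all other genes lie between -0.18 and 0.29.

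The gene with the largest difference, Cyp2b9, encodes a steroid hydroxylase that is more abundant in female than in male liver. Its probe set gave 57.0 units on the control array and 199.8 with oleanolic acid, 3.51-fold more (log2 ratio 1.81, probe set SD 0.27). Among all 7137 measured genes it ranked 4 by log2 ratio. It counted as measured through the oleanolic acid array alone, so this rank rests on the same signal that admitted it. When both arrays had to reach their median, it was not in the set. The control signal lay just under the median of its array, and no detection call was at hand to say whether it was above background. With signals raised to at least the array median the ratio was 1.70.

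The other Cyp2b genes were dim. Cyp2b10, the classical CAR target, had 3 probe sets with signals of 33.5, 15.5 and 4.4 units in the control and of 15.2, 10.7 and 4.9 with oleanolic acid. Cyp2b13, also female-biased, had 6.0 and 9.5 units, and the skin gene Cyp2b19 had 11.8 and 9.4. All of these lay below the array medians, and no direction was read from them. Cyp2b9 was thus the only Cyp2b gene with a probe set that reached the median of an array.

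Cyp2b9 and Cyp2b13 are neighbours in the RefSeq gene order and close copies of each other, which is why the starts of these genes and of Cyp2b10 are shown. Each run covers 250 bases before and 50 after the annotated start, from RefSeq on GRCm38.p6, plus strand, written 5′ to 3′. The windows lie at chr7:26173159-26173458 for Cyp2b9, chr7:25897408-25897707 for Cyp2b10 and chr7:26061245-26061544 for Cyp2b13. Capitals mark AGGTCA, the hexamer that nuclear receptors bind, on either strand.
Cyp2b9: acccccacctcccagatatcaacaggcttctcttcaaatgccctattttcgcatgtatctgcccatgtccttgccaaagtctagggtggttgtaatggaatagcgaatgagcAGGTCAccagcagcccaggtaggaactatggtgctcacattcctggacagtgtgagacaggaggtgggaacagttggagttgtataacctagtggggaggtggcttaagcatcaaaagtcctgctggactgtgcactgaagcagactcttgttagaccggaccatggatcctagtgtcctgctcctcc
Cyp2b10: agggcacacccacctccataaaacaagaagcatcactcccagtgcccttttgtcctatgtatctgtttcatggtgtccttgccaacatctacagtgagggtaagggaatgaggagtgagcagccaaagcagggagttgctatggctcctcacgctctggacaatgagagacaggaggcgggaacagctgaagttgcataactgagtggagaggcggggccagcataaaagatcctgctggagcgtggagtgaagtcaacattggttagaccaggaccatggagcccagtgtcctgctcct
Cyp2b13: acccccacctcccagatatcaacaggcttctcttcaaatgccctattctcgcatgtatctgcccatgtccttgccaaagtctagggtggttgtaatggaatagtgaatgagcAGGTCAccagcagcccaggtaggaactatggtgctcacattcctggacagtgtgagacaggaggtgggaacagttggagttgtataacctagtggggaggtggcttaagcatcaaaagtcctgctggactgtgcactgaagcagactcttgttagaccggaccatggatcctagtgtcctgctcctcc

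The Cyp2b9 and Cyp2b13 windows shared 298 bases (99.3% identity) and differed by T48C and C104T, counted from 1 at the 5′ end with the Cyp2b9 base first. Against Cyp2b10, the Cyp2b9 window had an identity of 72.9%, and against Cyp2b19 67.5%. AGGTCA stood in the same place in Cyp2b9 and Cyp2b13, starting 138 bases before the annotated start, and the Cyp2b10 window held no match. Cyp2b13 was at the floor on both arrays, so it has no ratio to set beside that of Cyp2b9. Whether the windows relate to either signal was not tested. The sequences of the array's probes were not used here, and whether the Cyp2b9 probe set also detects transcripts of its copies was not tested.

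A RefSeq window was found for 39 of the 49 genes, 45 windows in all. AGGTCA was present in 12 of these (26.7%), against 16.3% of 32851 windows of all genes. The TATA box TATAAA was present in 17 of 45 (37.8%, against 13.6%), among them those of Cyp1a2, Cyp2e1, Cyp2d9 and Cyp3a11. GCGTG, the core of the AhR site, was in 10 of 45 (22.2%, against 32.4%), including Cyp1a1 and Cyp2b10. TTCNNNGAA, the STAT5 site, was in 2 of 45 (4.44%, against 8.3%), Cyp4b1 and Cyp4f13. TTATGTAA, a site of the PAR bZIP factors Dbp, Tef and Hlf, was in 0 of 45 (0.938% of all windows). Both strands were searched, and these matches describe letters and not binding.

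Family 1 was represented by a single measured gene. Cyp1a2, a pericentral enzyme that oxidizes aromatic amines and caffeine, gave 5488 units in the control and 5179 with oleanolic acid (log2 ratio -0.08, probe set SD 0.13). The AhR-inducible Cyp1a1 had 42.6 and 34.8 units, below the median of both arrays. Cyp1b1, an extrahepatic enzyme, was also dim, with its brightest probe set at 34.7 and 33.7. Thus the measured AhR-responsive P450 differed by less than its probe error, and the dim ones give no ratio.

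The Cyp2c genes, which include arachidonic acid epoxygenases and drug-metabolizing enzymes, had mostly small ratios above 0. Of 8 measured genes 7 were above 0, with a median of 0.12 and a range from -0.06 to 0.19. All 8 fell in the brightest of 4 equal bands of measured genes, where 58.2% of all genes and 76.9% of the members lay above 0. Cyp2c54 (3209 and 3671 units, log2 ratio 0.19), Cyp2c38 (0.19), Cyp2c50 (6612 and 7338 units, 0.15) and Cyp2c68 (0.14) exceeded their probe set SD of 0.13, but not by a factor of 2. The CAR-responsive Cyp2c37 (0.10) and Cyp2c29 (0.05) and the muricholic acid-forming Cyp2c70 (0.03) did not exceed it. The 7 genes above 0 all belong to the same run of 14 neighbouring Cyp2c genes (gaps of at most 1000000 bases). Cyp2c23, listed apart from it in the RefSeq order, was the one below 0 (4603 and 4403 units, -0.06), within its probe set SD of 0.13. Its only probe set carries the suffix _s_at, given to probes that can match several transcripts. Of the 58 member probe sets, 6 carry this suffix or _x_at, and Cyp2c23 was not measured without them. With quantile normalization Cyp2c29 and Cyp2c70 fell below 0, to -0.03 and -0.0041. Once ratios were centred by intensity they were at -0.0073 and -0.01. The subfamily median under these scalings was 0.06 and 0.07. Median centring left Cyp2c29 at 0.05 and Cyp2c70 at 0.03. Cyp2c37 and Cyp2c50 have similar start windows (86.6% identity), and probe sets of such close genes may share transcripts, so they are not independent. Cyp2c55, a CAR target, lay just under the threshold with 59.9 and 57.6 units, and Cyp2c39 and Cyp2c65 were at the floor on both arrays.

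The Cyp2d genes, relatives of the human drug-metabolizing CYP2D6, lay on both sides of 0. Their 5 measured members had a median of 0.05 and ran from -0.07 to 0.11. The lowest of them, Cyp2d13, is not listed as a protein-coding gene in the RefSeq annotation. Cyp2d9, a steroid hydroxylase more abundant in males, had 6962 and 7229 units (0.05). Cyp2d10 (0.11) and Cyp2d26 (0.07) were within their probe set SD of 0.13. For Cyp2d13 and Cyp2d22 each of 2 probe sets was lower in the oleanolic acid array, at -0.07 ± 0.04 and -0.06 ± 0.04 (SD, n = 2 probe sets). The median of the subfamily was -0.02 after quantile normalization and -0.0038 after intensity-dependent centring, so its sign is not fixed. Cyp2d12 and Cyp2d34 were dim.

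Most other measured family 2 genes were level as well. Cyp2e1, the pericentral enzyme of ethanol and acetaminophen oxidation, had 9194 and 9451 units (0.04). Cyp2f2, the periportal enzyme that activates naphthalene, had 6124 and 6584 (0.10), and Cyp2a12, which hydroxylates bile acids, had 4730 and 4888 (0.05). Each of these was within a probe set SD of 0.13. Cyp2e1 was below 0 with quantile normalization (-0.0045) and once centred by intensity (-0.03), but at 0.04 with median centring. Cyp2a12 and Cyp2f2 belong to the same run of 13 neighbouring genes as Cyp2b9, in which 8 genes had a probe set of their own and these 3 were measured. The epoxygenase gene Cyp2j5 had 2 probe sets and a ratio of 0.03 ± 0.05 (SD, n = 2 probe sets). Cyp2j6 had 194.8 and 173.6 units (-0.17) and Cyp2j9 had 170.9 and 201.4 (0.24), neither past their probe set SD of 0.25.

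The Cyp2a4 and Cyp2a5 genes, known as rhythmic targets of Dbp in liver, share a probe set that carries both symbols and so falls outside the rule. It gave 7113 units on the control array and 5055 with oleanolic acid (log2 ratio -0.49). This is lower than the ratio of every measured member, the lowest of which was -0.18 for Cyp4a12a. The probe set cannot separate the female-biased steroid hydroxylase Cyp2a4 from the coumarin hydroxylase Cyp2a5.

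The Cyp3a genes, the PXR-inducible enzymes with the broadest drug range, were the most level subfamily of the 6 with at least 3 measured genes. Cyp3a11 had 10532 and 10476 units (-0.0077), Cyp3a13 1547 and 1548 (0.0017) and Cyp3a25 7123 and 7346 (0.04). Their median was 0.0017, and all were within a probe set SD of 0.13. The female-biased Cyp3a44 (24.2 and 14.1 units) and Cyp3a16 (3.0 and 0.4) were dim, as was the probe set shared by Cyp3a41a and Cyp3a41b (42.7 and 45.4).

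**Figure D2:**
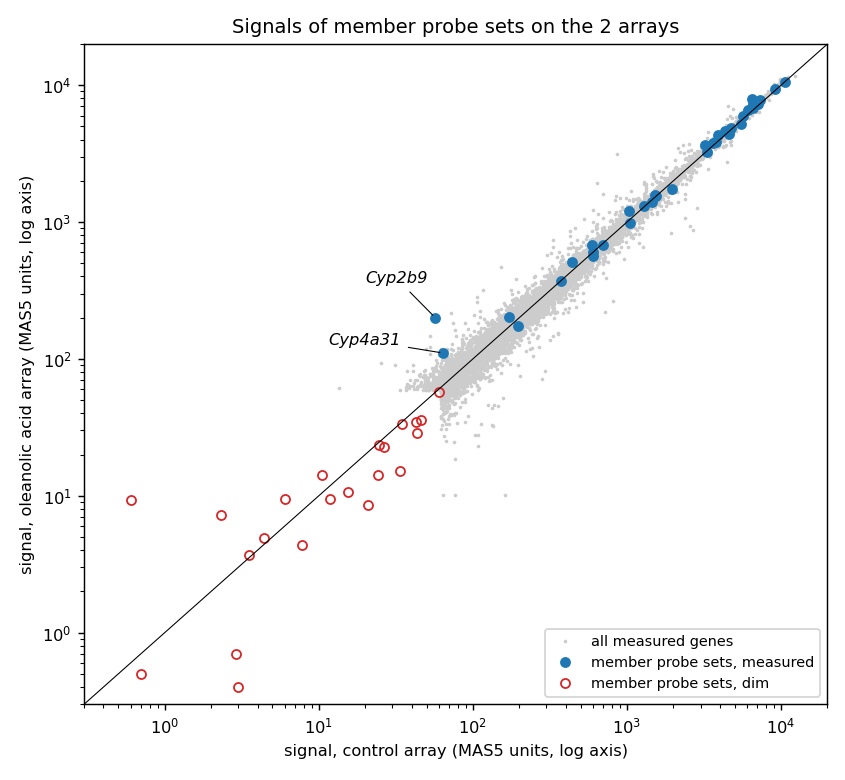
Signal on the control array (x) against the oleanolic acid array (y), both log axes in MAS5 units, for measured (filled) and dim (open) member probe sets over all measured genes (grey, signals raised to the floor). The diagonal is equality. Cyp2b9 (57.0 and 199.8) and Cyp4a31 (64.3 and 110.2) lie above it near the lower end of the measured range, while members above 1000 units lie close to it.

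The Cyp4a genes, fatty acid omega-hydroxylases, had the widest range of any subfamily with at least 3 measured genes, from -0.18 to 0.78. The PPAR-alpha target Cyp4a14 had 6473 units on the control array and 7908 with oleanolic acid, 1.22-fold more (log2 ratio 0.29, probe set SD 0.13). Cyp4a31 had 64.3 and 110.2 units, 1.71-fold more (0.78, probe set SD 0.27), and ranked 52 among all measured genes. A further probe set that carries the symbols Cyp4a31 and Cyp4a10, outside the rule, gave 5568 and 7670 units (0.46). The male-biased Cyp4a12a went the other way, with 1973 and 1737 units (-0.18, probe set SD 0.13). So the probe sets of Cyp4a14 and Cyp4a31, and the one shared by Cyp4a31 and Cyp4a10, were higher in the oleanolic acid array. That of Cyp4a12a was lower, and Cyp4a10 had no probe set of its own. Cyp4a10 and Cyp4a31 share a probe set, which shows that these copies are not separated fully by this array. With quantile normalization Cyp4a14 was at 0.23 and Cyp4a31 at 0.81.

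The remaining family 4 genes were close to level. The leukotriene hydroxylase Cyp4f14 had 1037 and 1212 units (0.22, probe set SD 0.13), while Cyp4f15 (0.03) and Cyp4f13 (0.0085) were within error. Cyp4b1, which hydroxylates medium-chain fatty acids, had 436.7 and 507.2 units (0.22, probe set SD 0.17). Cyp4v3, the counterpart of human CYP4V2, had 2 probe sets and a ratio of 0.0092 ± 0.07 (SD, n = 2 probe sets), with 1 probe set on each side of 0. Cyp4f16 and the leukocyte gene Cyp4f18 were dim.

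Set side by side, the medians were 0.29 for Cyp4a, 0.12 for Cyp2c, 0.05 for Cyp2d, 0.03 for Cyp2j, 0.03 for Cyp4f and 0.0017 for Cyp3a. The ranges of all 6 subfamilies overlapped one another. Members of a subfamily can share probes and transcripts, so these medians describe probe sets and were not tested against each other.

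The small ratios can be read against other genes of the same brightness. Of the 32 measured members, 26 fell in the brightest of 4 equal bands of measured genes, with a mean signal of at least 594 units. In this band, the median of the absolute log2 ratio was 0.06 over the members and 0.09 over all 1785 genes, and the SD of the log2 ratios was 0.105 and 0.204. All 26 members lay within 0.5 of 0, as did 97.3% of the genes of the band. The share above 0 was 76.9% of the members and 58.2% of the band. The 2 members past 0.5, Cyp2b9 and Cyp4a31, were both in the dimmest band, from 25.4 to 125 units, where 87.2% of all genes lay within 0.5.

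**Figure D3:**
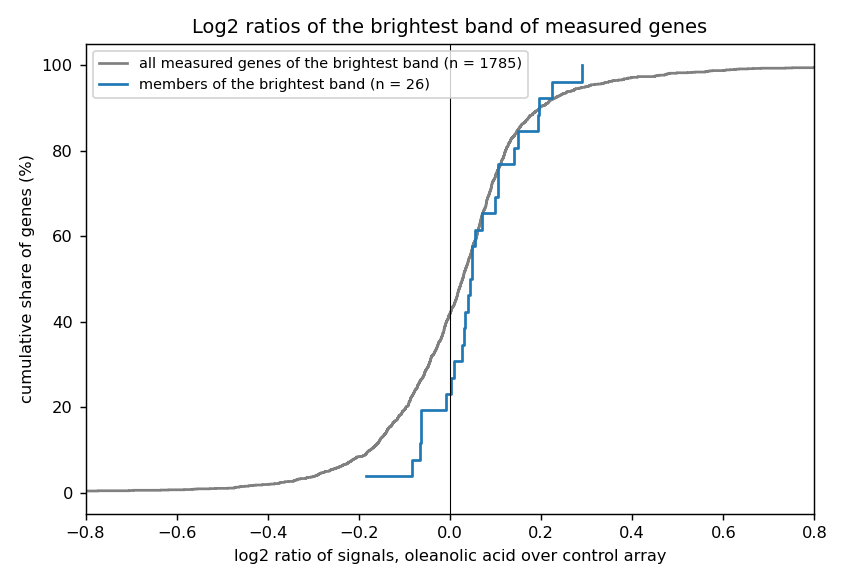
Cumulative share of genes (y, %) by log2 ratio (x) for the 26 members in the brightest band of measured genes and for all 1785 genes of that band. The members run from -0.18 to 0.29, and the curve of all genes has longer tails on both sides.

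By role, few of the sex-biased P450s could be read. Of 9 female-biased P450 genes fixed for description, 4 had a probe set of their own and only Cyp2b9 was measured. Of 3 male-biased ones, Cyp2d9 (0.05) and Cyp4a12a (-0.18) were measured. Sex-biased genes outside the P450s went in both directions. Among 5 measured male-biased genes 2 were above 0 and 3 below, where 50.2% of all measured genes lay above 0. Their median was -0.13, with the fatty acid elongase Elovl3 at 1.86, Susd4 at -0.36 and Nudt7 at -0.23. Among 3 measured female-biased ones the median was -0.24, with Fmo2 at -0.69, Abcd2 at 0.48 and Acot3 at -0.24. The 7 pericentral P450 genes (Cyp1a2, Cyp2e1, Cyp2c29, Cyp2c37, Cyp2c50, Cyp2c54 and Cyp3a11) had a median of 0.05. Of these, 7 of 7 lay within 0.5, as did 94.1% of all measured genes. The 7 pericentral genes outside the family, such as Lgr5 (0.16), Axin2 (0.06) and Lect2 (-0.22), had a median of 0.01. Of 4 measured periportal genes outside the family, Hal (0.60) and Cdh1 (0.58) were above 0.5 (2.63% of all measured genes) and Pck1 was at -0.25.

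The receptors and partners of these enzymes were described in the same way. The redox partners that could be read were level, with 5 of 5 measured genes within 0.5 (94.1% of all) and a median of 0.02. P450 oxidoreductase (Por), the electron donor named above, and Fdxr had no probe set of their own and were not read. The largest values were those of Fdx1 (-0.09), which serves mitochondrial P450s, and of the cytochrome b5 genes Cyb5b (0.09) and its reductase Cyb5r3 (0.08). Of 14 measured regulators 5 were above 0 and 9 below, with a median of -0.13, where 50.2% of all measured genes lay above 0. Of these regulators 0 were above 0.5 (2.63% of all measured genes) and 2 below -0.5 (3.24%). The lowest were the PAR bZIP factors, which are clock outputs that act on genes of drug metabolism: Dbp with 1936 and 825 units (-1.23 ± 0.06, SD, n = 2 probe sets), Tef (-0.91 ± 0.17, SD, n = 2 probe sets) and Hlf (-0.37). Other regulators are named here outside the naming rule. Of the receptors introduced above, Ppara was at -0.34, Ahr at -0.30, Nr1i3 (CAR) at -0.22 and Nr1i2 (PXR) at -0.10, the last close to its probe set SD of 0.10. Their partner Rxra was level (-0.02). The 5 regulators above 0 were Stat5b (0.35), Foxa2 (0.26), Bcl6 (0.24), Hnf4a (0.22, probe set SD 0.33) and Cebpa (0.009).

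Targets of these receptors outside the P450s were read from the same arrays. Among 11 measured targets of CAR, PXR and AhR 3 were above 0 and 8 below (50.2% of all measured genes lay above 0). The median of these targets was -0.13. The lowest was Alas1, which encodes the first and rate-limiting enzyme of heme synthesis and so supplies the prosthetic group of all P450s, with 2857 and 1261 units (-1.18 ± 0.26, SD, n = 2 probe sets). Tiparp (-0.43) and the transporter gene Abcc3 (0.26) followed by size. Of 9 measured PPAR-alpha targets outside the family, 7 were above 0 (50.2% of all measured genes) and 3 above 0.5 (2.63%). These 3 were the kinase gene Pdk4 (0.93, with 77.3 and 147 units), the thioesterase gene Acot1 (0.80) and the hormone gene Fgf21 (0.72). Outside the naming rule, Ehhadh (0.05) and Acaa1b (0.06) were near 0, and Fabp1 (-0.07) and Cpt1a (-0.21) were below it. The median of the 9 genes was 0.23, and Cyp4a14 had 0.29. Whether these genes and the Cyp4a genes share a cause was not tested.

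**Figure D4:**
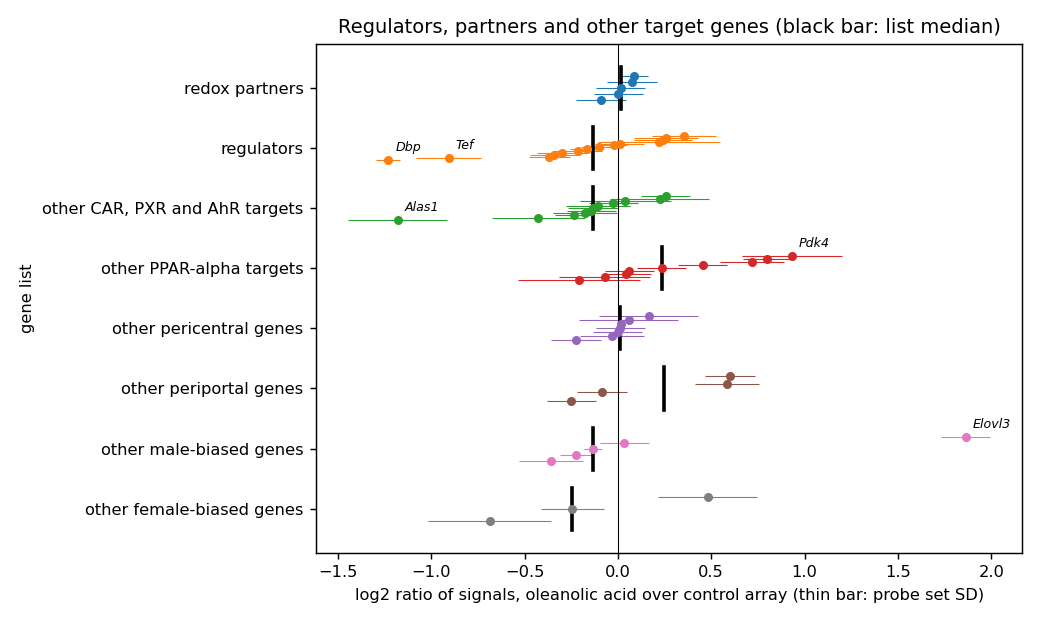
Log2 ratio (x) of each measured gene of 8 lists of regulators, redox partners, other targets and zonal or sex-biased genes (rows), with the probe set SD as a thin bar and the list median as a black bar. Redox partners and pericentral genes cluster at 0, while Dbp (-1.23), Tef (-0.91), Alas1 (-1.18), Pdk4 (0.93) and Elovl3 (1.86) lie farthest out in their lists.

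The 17 members that were not measured account for the rest of the family on this array. Their signals lay between 0.4 and 59.9 units, and 6 of them were at the floor on both arrays with every probe set. Besides those given above they were Cyp2g1 (43.1 and 28.9 units), an olfactory gene, Cyp2s1 (20.9 and 8.5) and Cyp2j13 (2.3 and 7.2). The RefSeq annotation lists 80 protein-coding genes with these prefixes, of which 48 had a probe set with a symbol of their own. The remaining member, Cyp2d13, is not among these protein-coding genes. Genes such as Cyp2c40, Cyp2c69, Cyp2r1 and Cyp4a12b were not analysed here.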

How the data were processed

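Liver RNA was pooled per diet and hybridized as biotin-labelled cRNA to Affymetrix arrays, 1 per diet. The deposited values are linear signal intensities made with MAS5 by the authors, per the submitters' processing notes. After removal of the lowest and highest 2%, the mean signal of each array was 300.0 (to 3 digits), and no further scaling was done. The members, gene lists and tests were chosen with earlier results of these data known. Symbols were taken from GEO's platform annotation, and 49 of 49 member genes matched RefSeq (GRCm38.p6) by gene identifier. Of 22690 probe sets, 64 array controls, 691 with several symbols and 1555 with none were left out of gene values.

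Signals were raised to the 25th percentile of each array (10.7 and 10.1) before log2 conversion. Probe sets counted as measured where the signal reached the array's median on either array, and log2 ratios of measured probe sets were averaged per gene, 7137 genes in all. Pooled SDs between probe sets in 4 bands of rising signal were 0.27, 0.25, 0.17 and 0.13. Where a gene had several probe sets, its printed signal is their geometric mean. The number of arrays limits the precision, and no detection calls were used here. Named genes were members past 0.5, the 3 largest per subfamily, fixed role groups and up to 3 genes per pathway list. Sequence windows were aligned globally to give identities. The procedure was tested on simulated data whose planted changes were larger than any member's ratio, so recovery of small changes was not tested. The 8 alternatives, plus 1 added after seeing the data, were run with Python 3.11.15, pandas 2.3.3 and statsmodels 0.14.6.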

Additional observations from a re-analysis of the deposited data

How the results depend on the processing

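No paired analysis was possible because each diet has 1 array. Across 53 results and 8 alternatives, plus 1 chosen after seeing the data for part of them, 430 of 435 values stayed within 1 probe set SD of the reported value (for counts, within a factor of 1.5). The other 5 were counts of members. Medians were compared with the probe set SD of the brightest band, 0.13. This exceeds the member median and every subfamily median except that of Cyp4a, so changes of sign in them counted as within it. A gene that was not measured in a setting gave no value there and was not counted. When both arrays had to reach their median, Cyp2b9 dropped out because of its control signal, leaving 0 members above 1.5, 0 above 1 and 1 above 0.5. With all probe sets counted as measured, 4 dim members lay below -0.5 and 1 of them, Cyp2s1, below -1 (-1.05, with the oleanolic acid signal at the floor). Across the alternatives that kept it, Cyp2b9 lay between 1.70 and 1.85 and Cyp4a31 between 0.78 and 0.81. The member median ran from 0.0085 to 0.05, and the medians of Cyp2d, Cyp2j and Cyp3a changed sign in at least 1 setting. With the shared probe sets added, the Cyp4a median was 0.38. Members of low signal have ratios that rest on signals whose distance from background is unknown, and no value here carries the spread between animals.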

Other observations

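P450 genes outside families 1 to 4, some of which act in sterol and bile acid metabolism, were looked at separately. Of 14 such genes with a probe set, 8 were measured, with 4 above 0, 4 below and a median of -0.04, and 6 of 8 lay within 0.5 of 0, where 94.1% of all measured genes lay. Cyp8b1, the sterol 12-alpha-hydroxylase, was the highest at 0.62 (1467 and 2261 units) and Cyp7a1, the first enzyme of the classical bile acid route, the lowest at -0.64. The lanosterol demethylase gene Cyp51 was at 0.44 ± 0.06 (SD, n = 2 probe sets). The oxysterol hydroxylase gene Cyp7b1, a male-biased enzyme, was at -0.21 ± 0.06 (SD, n = 2 probe sets). Cyp39a1 was at -0.17, Cyp17a1 at -0.17, Cyp27a1 at 0.10 and Cyp46a1 at 0.10. The dim genes were Cyp11a1, Cyp11b2, Cyp21a1, Cyp24a1, Cyp26a1 and Cyp27b1.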
